A study of Mus musculus with 12 samples.

Results

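The Hedgehog pathway genes described here are Shh, Ptch1, Smo, Boc, Hhip, Gli1, Gli2, Gli3 and Sufu, the ligand, receptors, transcription factors and a cytoplasmic inhibitor of a signalling route between cells. They were chosen by name, and each was found by its Ensembl ID without the version. All 9 were present among the 18269 genes of the deposited table, and all 9 were among the 17000 genes tested. RNA was sequenced from mouse embryoid bodies, which are aggregates of differentiating embryonic stem cells, of strain C57BL/6. The 4 groups were Gcn5-/- embryoid bodies (line 4C2, called null below) at day 5, Gcn5fx/fx embryoid bodies (line 4_1, called floxed) at day 5, null at day 3 and floxed at day 3, with 3 samples in each. Gcn5, whose gene symbol is Kat2a, is a histone acetyltransferase, and the floxed line carries it with recombination sites on both alleles. Each genotype was represented by 1 cell line, so the genotype and the line cannot be told apart, and p-values measure the spread between samples of those lines, which may be technical.

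In mammals Hedgehog ligands bind Ptch1 on the receiving cell and release Smo from its inhibition, often with the help of coreceptors such as Boc. Active Smo, acting at the primary cilium, frees the Gli factors from Sufu, after which Gli2 mostly activates transcription and Gli3, processed into a repressor without signal, mostly represses it. Gli1, Ptch1 and Hhip are themselves widely used transcriptional targets of the pathway, and in the early embryo Shh from the notochord and floor plate patterns the ventral neural tube.

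The promoter windows below are those of the members that were lower in null than in floxed embryoid bodies at day 5 and for which a RefSeq window was at hand, shown so that the starts of these genes can be compared. Each runs 5′ to 3′ on the gene's own strand from 250 bases before to 50 bases after the RefSeq start (GRCm38.p6, the same assembly as mm10). They lie at chr13:63565686-63565985 on the minus strand for Ptch1, chr1:119053570-119053869 on the minus strand for Gli2, chr13:15463473-15463772 on the plus strand for Gli3 and chr19:46396646-46396945 on the plus strand for Sufu. The RefSeq starts of Ptch1 and Gli3 lie inside the spans that GENCODE M21 gives these genes. Capitals mark the GC box core GGGCGG, read on either strand.
Ptch1: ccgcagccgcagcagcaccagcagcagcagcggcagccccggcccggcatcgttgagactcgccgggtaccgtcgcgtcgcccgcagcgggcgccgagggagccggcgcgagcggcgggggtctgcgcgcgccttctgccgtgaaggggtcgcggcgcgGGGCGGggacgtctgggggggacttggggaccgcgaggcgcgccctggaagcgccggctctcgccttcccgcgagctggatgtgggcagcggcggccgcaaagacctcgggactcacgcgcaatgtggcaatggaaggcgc
Gli2: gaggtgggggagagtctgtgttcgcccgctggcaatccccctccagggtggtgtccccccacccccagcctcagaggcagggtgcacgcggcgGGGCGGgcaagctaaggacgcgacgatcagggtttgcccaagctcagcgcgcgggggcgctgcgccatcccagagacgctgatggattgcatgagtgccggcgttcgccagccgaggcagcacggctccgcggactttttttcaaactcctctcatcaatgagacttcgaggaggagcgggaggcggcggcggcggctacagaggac
Gli3: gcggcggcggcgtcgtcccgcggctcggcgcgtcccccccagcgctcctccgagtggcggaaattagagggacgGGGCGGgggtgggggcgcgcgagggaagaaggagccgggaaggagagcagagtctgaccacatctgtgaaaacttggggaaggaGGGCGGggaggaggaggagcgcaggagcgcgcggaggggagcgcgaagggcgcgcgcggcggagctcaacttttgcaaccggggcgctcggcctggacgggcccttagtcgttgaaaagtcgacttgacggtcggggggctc
Sufu: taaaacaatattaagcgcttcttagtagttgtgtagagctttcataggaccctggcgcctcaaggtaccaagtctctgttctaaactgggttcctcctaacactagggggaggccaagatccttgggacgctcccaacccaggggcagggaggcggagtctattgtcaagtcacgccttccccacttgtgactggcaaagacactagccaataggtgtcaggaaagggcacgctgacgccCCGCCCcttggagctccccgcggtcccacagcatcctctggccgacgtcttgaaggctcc
Windows were matched for 6 of the 9 members, the other two being Smo and Hhip; Shh, Gli1 and Boc were not matched. The core GGGCGG occurred 1 time in each of the Ptch1, Gli2 and Sufu windows, 2 times each in those of Gli3 and Hhip and 0 times in that of Smo, and 35.7% of all 32851 mouse windows held it. The letters GACCACCCA, the consensus that Gli factors bind, were in none of the 6 windows on either strand and in 0.253% of all windows. With 1 mismatch allowed they were again in none of the 6, against 6.74% of all windows. The E-box CACGTG was in none of the 6 and in 7.15% of all windows. These matches describe letters only, and no overlap between motifs occurred.

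Values are read counts that the authors divided by 1 size factor per sample, called normalised counts here. Libraries held 18022071 to 26803369 recovered reads in the null line and 23090915 to 29446068 in the floxed line. Kat2a averaged 817 ± 67.5 in null and 2207 ± 165 in floxed embryoid bodies at day 5 (log2 change -1.43 ± 0.11) and 701 ± 122 in null and 2228 ± 151 in floxed at day 3 (log2 change -1.68 ± 0.11; SD for means, SE for changes, n = 3). Reads of Kat2a remained in every null library, and which exons were removed is not given in the sources used here. In a principal component analysis the days parted along the first component, which held 60.2% of the variance, and the genotypes along the next, which held 14.5%. Along the component with 5.89%, 3 of the 4 libraries numbered 3 stood apart from the others, that of floxed day 3 less so, and results are therefore also given without all 4 where that changed a call.

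At day 5, 6 of the 9 Hedgehog genes were lower in null than in floxed embryoid bodies and none was higher. Gli1, the pathway's target transcription factor, was lower by 2.47 ± 0.31 on the log2 scale, and Shh, the ligand, by 2.74 ± 0.66 from few reads. Ptch1, Gli2, Gli3 and Sufu were lower by 0.49 to 0.69. Changes were called with limma at a Benjamini-Hochberg adjusted p under 0.05 over all genes tested, where 13.5% of genes were called lower and 13.0% higher. Shh passed the filter on low values only through the floxed day 5 group in which it was high; of the other 8 members, which passed in every group, 5 were called lower. The median change over the 9 members was -0.65, beside -0.02 over all genes tested, and the 2 sets of libraries did not overlap for 6 of the 9 members, beside 42.0% of all genes. Both this median and this count of 6 include Shh and were not worked out without it.

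At day 3, Gli1 and Gli2 were lower in null than in floxed embryoid bodies, and the other 7 members were not called. Among all genes, 2.03% were called lower and 4.09% higher at that day. The median change was -0.18 over the members, Shh included, and -0.00 over all genes, and 2 of the 9 members had groups that did not overlap, beside 27.9% of all genes. Both comparisons use whole embryoid bodies, so fewer cells of a type and less RNA per cell cannot be told apart.

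**Figure D1:**
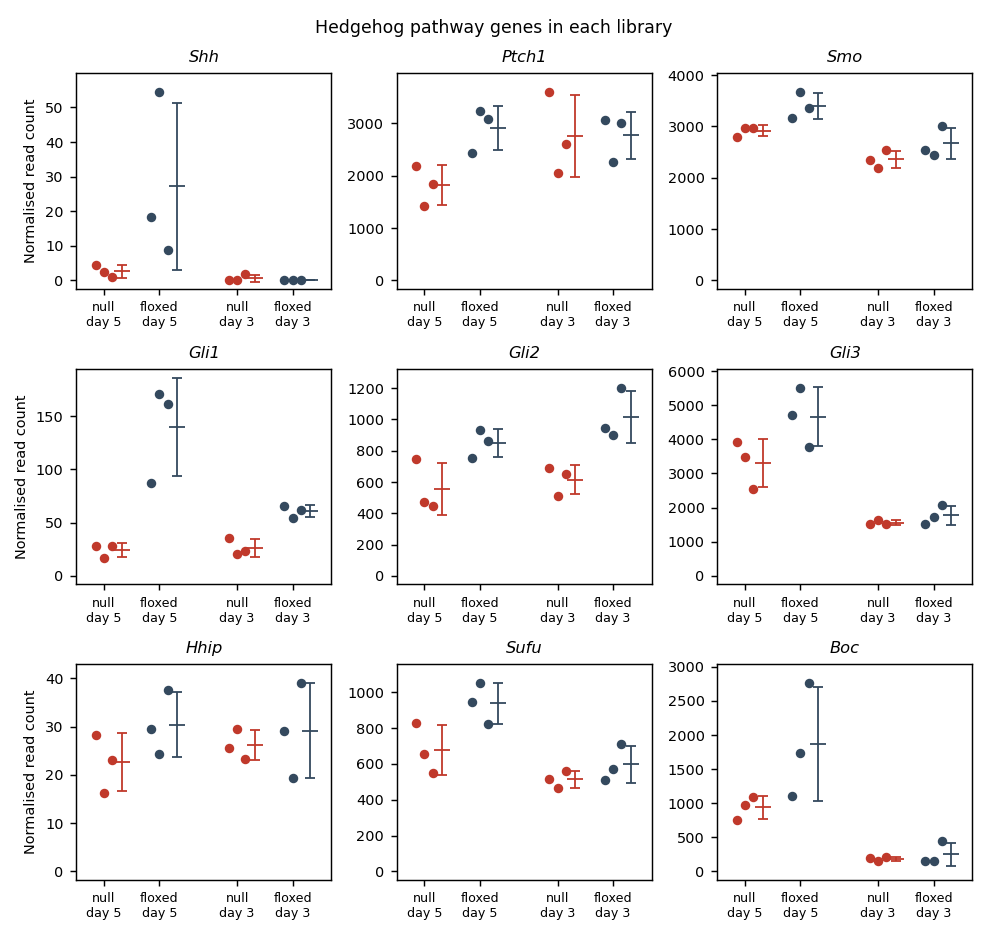
Normalised read counts of the 9 Hedgehog genes in each library (vertical axis, linear, 1 panel per gene), with null in red and floxed in dark blue and day 5 to the left of day 3. Points are libraries and the bar beside them is the mean ± SD (n = 3); Gli1 lay between 16.3 and 28.3 in the null day 5 libraries and between 86.7 and 171 in the floxed day 5 libraries.

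Among the 9 genes, the ligand Shh (ENSMUSG00000002633.4; mm10 chr5:28456815-28467256, minus strand) had few or no reads outside the floxed day 5 group. Its normalised counts were 4.52, 2.33 and 0.891 in null embryoid bodies at day 5, against 18.3, 54.5 and 8.73 in floxed ones, and 0, 0 and 1.79 in null at day 3, against 0 in all 3 floxed libraries. All null day 5 libraries were below all floxed day 5 libraries, and the floxed ones differed widely among themselves. These values rest on 7 reads over the null day 5 group, 98 over floxed day 5, 2 over null day 3 and 0 over floxed day 3. The pooled ratio of null to floxed at day 5 was 0.0897, with an exact 95% interval of 0.0351 to 0.192 that covers counting error only. The fitted log2 change was -2.74 ± 0.66 (adjusted p = 0.00956), for a gene that was tested only because of its level in the floxed day 5 group. In the floxed line the pooled day 5 value of Shh was 27.9-fold the limit for day 3. That limit took 3 counts over the group for the day without reads. Counting error and spread of the day 5 libraries are not in this ratio, so it is not a lower bound. Of the 98 reads, 65 came from floxed day 5 replicate 2. A lincRNA and an antisense gene share exonic bases with Shh on the other strand in GENCODE M21, and since the strand setting of the counting is not given in the sources used here, their reads cannot be told apart from those of Shh.

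Floor plate and notochord are the tissues that make Shh in the early embryo. The 10 markers of floor plate and notochord, 1 of which is Shh itself, summed to between 2308 and 2731 in null libraries and between 3337 and 3737 in floxed libraries at day 5. Of the 9 markers tested, 3 were lower in null (Foxa2, Shh and T) and 1 was higher (Chrd), beside 13.5% lower and 13.0% higher among all genes. None was called at day 3, beside 2.03% lower and 4.09% higher. At day 5 T lay between 13.4 and 47.8 in null and between 43.0 and 333 in floxed libraries, which overlapped. The calls of T and Chrd were not tried under the alternatives. Ntn1, the most abundant of these markers at day 5, averaged 1754 ± 187 in null and 2545 ± 474 in floxed and was not called (adjusted p = 0.0505). It lies on chromosome 11, many of whose genes were higher in null libraries. Its genotype change and the marker sums are given here without centring that chromosome. Shh and Noto were at 0 in the floxed libraries at day 3. Foxa2, a transcription factor of floor plate, notochord and endoderm, had 89.3, 79.2 and 86.5 in null and 165, 286 and 236 in floxed libraries at day 5, with a log2 change of -1.38 ± 0.29 (adjusted p = 0.00476). The part of these cells in the values of Shh was not tested.

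The receptor gene Ptch1 (ENSMUSG00000021466.11; chr13:63508328-63573598, minus strand) had normalised counts of 2184, 1431 and 1846 in null and 2428, 3229 and 3082 in floxed embryoid bodies at day 5. At day 3 they were 3600.0, 2049.7 and 2606 in null and 3058, 2259.6 and 3015 in floxed. The groups did not overlap at day 5, while at day 3 the null libraries spanned the floxed ones. The log2 change was -0.69 ± 0.20 at day 5 (adjusted p = 0.0239) and -0.04 ± 0.20 at day 3 (adjusted p = 0.938, 95% interval -0.47 to 0.40). At day 5 the gene failed the test when null replicate 2 (adjusted p = 0.0991), null replicate 3 (0.0518), floxed replicate 2 (0.0722), floxed replicate 3 (0.0688) or all 4 libraries numbered 3 (0.124) were left out, with the change between -0.83 and -0.53 over the libraries left out in turn.

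Smo (ENSMUSG00000001761.7; chr6:29735503-29761365, plus strand), which carries the signal inward, had the narrowest intervals of the 9 members. Its normalised counts were 2792, 2974 and 2973 in null and 3171, 3668 and 3358 in floxed libraries at day 5, and 2349, 2193 and 2531 in null and 2549, 2452 and 3005 in floxed libraries at day 3. The day 5 groups did not overlap and the day 3 groups did. The change of -0.22 ± 0.09 at day 5 missed the threshold (adjusted p = 0.0802, 95% interval -0.41 to -0.03), and so did that of -0.18 ± 0.09 at day 3 (adjusted p = 0.258). With the replicate number as a block the day 5 change was called (adjusted p = 0.0476), as it was without floxed day 3 replicate 3 (adjusted p = 0.0475).

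For the coreceptor Boc (ENSMUSG00000022687.11; chr16:44485049-44558897, minus strand), the null libraries held 748, 979 and 1089 and the floxed libraries 1104, 1729 and 2761 at day 5. The day 3 values were 198, 149.9 and 208 in null and 156, 150.1 and 445 in floxed. At day 5 every null library was below every floxed library, though the highest null and the lowest floxed value were close, and floxed replicate 3 was the highest at both days. The day 5 change of -0.91 ± 0.38 did not pass the test (adjusted p = 0.0967, 95% interval -1.73 to -0.08). It passed with the replicate number as a block (adjusted p = 0.0164), without floxed day 3 replicate 3 (adjusted p = 0.0236) and without floxed day 5 replicate 1 (log2 change -1.24, adjusted p = 0.0454). At day 3 the change was -0.25 ± 0.38 (adjusted p = 0.756), and it was 0.17 without the 4 libraries numbered 3.

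Hhip (ENSMUSG00000064325.3; chr8:79965851-80058006, minus strand), a decoy receptor that binds ligand at the cell surface, was low in all groups. Its normalised counts were 28.3, 16.3 and 23.2 in null and 29.4, 24.3 and 37.5 in floxed libraries at day 5, and 25.7, 29.5 and 23.2 in null and 29.0, 19.3 and 39.0 in floxed libraries at day 3. The groups overlapped at both days. The log2 change was -0.43 ± 0.31 at day 5 (adjusted p = 0.337, 95% interval -1.09 to 0.24) and -0.10 ± 0.31 at day 3 (adjusted p = 0.884, 95% interval -0.77 to 0.56). Hhip shares 175 exonic bases with Gm27820 on the other strand. These values rest on 65 to 109 reads per group.

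Of the transcription factors, Gli1 (ENSMUSG00000025407.6; chr10:127329882-127341974, minus strand) differed most between genotypes. It had 28.3, 16.3 and 27.6 normalised counts in null and 86.7, 171 and 162 in floxed embryoid bodies at day 5, and 35.4, 20.1 and 23.2 in null and 65.8, 54.7 and 61.7 in floxed at day 3. No null library reached any floxed library at either day. These values rest on 70 reads over each null group, 498 over floxed day 5 and 187 over floxed day 3. The log2 change was -2.47 ± 0.31 at day 5 (adjusted p = 0.000271), a 5.53-fold lower fitted level. Leaving out any library kept that change between -2.78 and -2.22 with the largest adjusted p at 0.00148. At day 3 the change was -1.22 ± 0.31 (adjusted p = 0.0374), and it was no longer called without null day 3 replicate 2 (0.11) or 3 (0.117), or floxed day 3 replicate 1 (0.124), 2 (0.0751) or 3 (0.0836), these being adjusted p-values. It was also lost with the genes of chromosome 11 left out (0.0592) or centred (0.0576) and without the 4 libraries numbered 3 (0.186). On the other strand Gli1 shares 265 exonic bases with Gm47200, not analysed here, and 62 with Arhgap9, whose own count averaged 16.6 ± 5.60 in null and 26.9 ± 3.33 in floxed at day 5 and was not called (adjusted p = 0.0816).

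Gli2 (ENSMUSG00000048402.14; chr1:118834132-119053619, minus strand), the main activator of the family, had 745, 474 and 446 in null and 753, 930.1 and 861 in floxed libraries at day 5, and 687, 509 and 652 in null and 944, 899 and 1203 in floxed libraries at day 3. Neither pair of groups overlapped, although null replicate 1 lay next to floxed replicate 1 at day 5. The log2 change was -0.65 ± 0.19 at day 5 (adjusted p = 0.0219) and -0.72 ± 0.19 at day 3 (adjusted p = 0.0372). The day 5 result failed the test with null replicate 2 (adjusted p = 0.082) or 3 (0.0884), floxed replicate 2 (0.0664) or 3 (0.0561), or all libraries numbered 3 (0.137) left out. At day 3 it was lost when any of the 6 day 3 libraries was left out (adjusted p from 0.0522 to 0.118), without the libraries numbered 3 (0.146), and with chromosome 11 left out (0.0592) or centred (0.0576).

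Gli3 (ENSMUSG00000021318.15; chr13:15463235-15730026, plus strand), the main repressor, had 3908, 3480.0 and 2536 in null and 4701, 5514 and 3784 in floxed embryoid bodies at day 5. At day 3 it had 1525, 1644 and 1516 in null and 1519, 1735 and 2066 in floxed. Null replicate 1 exceeded floxed replicate 3 at day 5, so these groups overlapped, as did those of day 3. The log2 change was -0.50 ± 0.16 at day 5 (adjusted p = 0.0373) and -0.17 ± 0.16 at day 3 (adjusted p = 0.578). Gli3 failed the test at day 5 when leaving out null replicate 2 (adjusted p = 0.0588) or 3 (0.149) or floxed replicate 1 (0.0909) or 2 (0.132), under upper-quartile scaling (0.0555) and with only the 6 day 5 libraries in the fit (0.0789). Gli3 shares 188 exonic bases with Gm6556 on the other strand, which had 34.2 ± 10.4 in null and 26.1 ± 1.61 in floxed at day 5.

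Sufu (ENSMUSG00000025231.16; chr19:46396896-46488804, plus strand), which holds Gli proteins in the cytoplasm, had 826, 655 and 549 in null and 944, 1052 and 822 in floxed libraries at day 5, and 518, 463 and 561 in null and 511, 574 and 713 in floxed libraries at day 3. Null replicate 1 just exceeded floxed replicate 3 at day 5, and the day 3 groups overlapped more widely. The log2 change was -0.49 ± 0.16 at day 5 (adjusted p = 0.0380) and -0.21 ± 0.16 at day 3 (adjusted p = 0.468). Sufu failed the test at day 5 when leaving out null replicate 2 (adjusted p = 0.0927) or 3 (0.149), floxed replicate 1 (0.0895) or 2 (0.119) or all libraries numbered 3 (0.0573), under upper-quartile scaling (0.0564) and with only the day 5 libraries in the fit (0.0591).

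**Figure D2:**
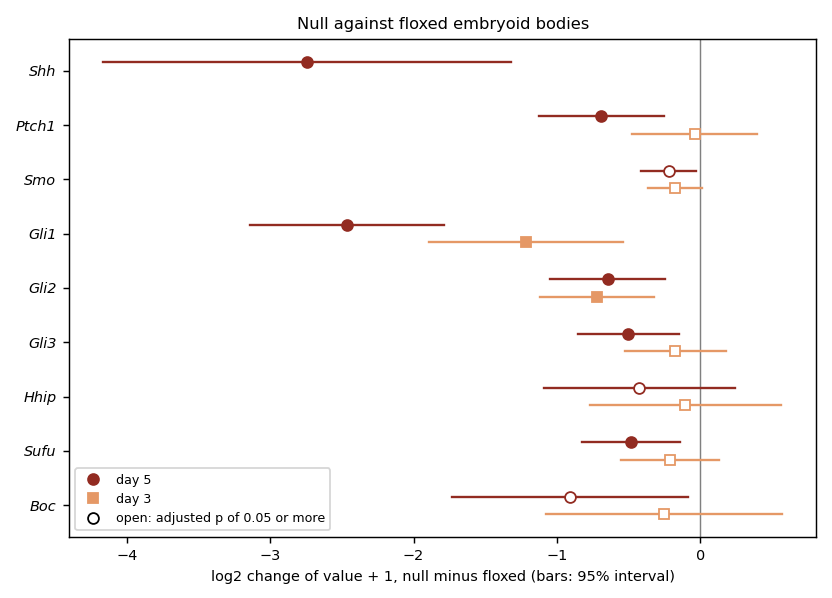
Log2 changes of the Hedgehog genes, null minus floxed, from limma on log2(value + 1), at day 5 (dark circles) and day 3 (light squares); bars are 95% intervals and open symbols mark an adjusted p of 0.05 or more. Gli1 at day 5 (-2.47) lies farthest from 0 among the genes with reads in all groups, and Shh is drawn at day 5 only because it had 0 to 2 reads per library at day 3.

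Whether the genotype difference itself changed between the days was tested as an interaction. None of the 9 members was called, beside 0.476% of all genes (81 genes by limma; 2412 at an unadjusted p under 0.05, 73 by edgeR and 511 by DESeq2). The difference in Gli1 was 1.25 ± 0.44 log2 units more negative at day 5 than at day 3 (adjusted p = 0.223), and that in Ptch1 was 0.65 ± 0.29 more negative (adjusted p = 0.326). For Gli2 the interaction was 0.08 ± 0.26 (adjusted p = 0.934, 95% interval -0.49 to 0.64). With the replicate number as a block, 443 genes were called in all.

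Neural progenitor markers also differed between the genotypes at day 5. The summed normalised counts of 10 such markers were 9373 to 11822 in null and 14575 to 23896 in floxed libraries at day 5. Of these 10 markers 4 were lower in null and none was higher, beside 13.5% lower and 13.0% higher among all genes. At day 3 the sums were 9308 to 10392 in null and 9619 to 10571 in floxed libraries. Of 5 pluripotency markers 4 were lower in null at day 5 (sums 9468 to 12538 in null, 12618 to 18011 in floxed). At day 3, 2 of the 5 were lower, beside 2.03% of all genes. None of the 10 extraembryonic endoderm markers and none of the 10 tested fibroblast and mesenchyme markers was called at day 5, by limma; their sums were 1787 to 2836 in null against 1386 to 4855 in floxed, and 2196 to 3706 in null against 2334 to 3406 in floxed. Of the fibroblast and mesenchyme markers 2 were higher in null at day 3, beside 4.09% of all genes. None of these 4 lists had a marker of the table at 0 over a group, and the part of any of these cell types in the Hedgehog values was not tested. The marker calls counted here were not tried under the alternatives.

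Between the days, 6 of the 9 members were higher at day 5 than at day 3 in the floxed line and none was lower, where 22.5% of all genes were called higher and 19.2% lower. In the null line 3 were higher and 1 was lower, where 22.6% of all genes were called higher and 21.9% lower. Without Shh the floxed count was 5 of 8. The median change of the members was 0.31 in the null line and 0.65 in the floxed line, beside 0.00 over all genes in each. Both medians include Shh, which passed the filter only through the floxed day 5 group. These comparisons use the same libraries as the genotype comparisons, so the 2 kinds of result are not separate evidence.

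Boc rose most among the members with reads at both days, by 2.33 ± 0.38 in the null line (adjusted p = 0.000363) and by 2.99 ± 0.38 in the floxed line (adjusted p = 5.99e-05). Gli3 rose by 1.06 ± 0.16 in the null line (adjusted p = 0.00023) and by 1.39 ± 0.16 in the floxed line (adjusted p = 3.17e-05). Smo rose slightly, by 0.31 ± 0.09 in the null line (adjusted p = 0.0122) and 0.35 ± 0.09 in the floxed line (adjusted p = 0.00595); in the null line Smo failed the test when null day 3 replicate 2 was left out (adjusted p = 0.0543). All day 5 libraries exceeded all day 3 libraries of the same line for these 3 genes; among all genes the days did not overlap for 53.7% in the null line and 53.2% in the floxed line.

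Gli1 was higher at day 5 than at day 3 in the floxed line (1.13 ± 0.31, adjusted p = 0.0110), whereas its change in the null line was -0.12 ± 0.31 (adjusted p = 0.783, 95% interval -0.80 to 0.56). The floxed result failed the test with floxed day 5 replicate 2 left out (adjusted p = 0.0513) and with the libraries numbered 3 left out (0.0802). Ptch1 was lower at day 5 in the null line (-0.58 ± 0.20, adjusted p = 0.0324), with overlapping libraries, and differed by 0.07 ± 0.20 in the floxed line (adjusted p = 0.807). For Ptch1 the null result failed the test when leaving out null day 3 replicate 1 (log2 change -0.37, adjusted p = 0.154) or 3 (0.0591), null day 5 replicate 2 (0.142) or 3 (0.06), or the libraries numbered 3 (0.0936). As the interaction was called for neither gene, a difference between the lines in these day changes was not shown.

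Sufu was higher at day 5 in the floxed line (0.65 ± 0.16, adjusted p = 0.00502) and changed by 0.38 ± 0.16 in the null line (adjusted p = 0.0674). The null value passed without floxed day 3 replicate 3 (adjusted p = 0.0495), null day 5 replicate 3 (0.0227) or the libraries numbered 3 (0.00715). Gli2 changed by -0.18 ± 0.19 in the null line (adjusted p = 0.464) and by -0.25 ± 0.19 in the floxed line (adjusted p = 0.299), and Hhip by -0.23 ± 0.31 (adjusted p = 0.578) and 0.09 ± 0.31 (adjusted p = 0.833) in those lines. Neither Gli2 nor Hhip was called in either line.

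**Figure D3:**
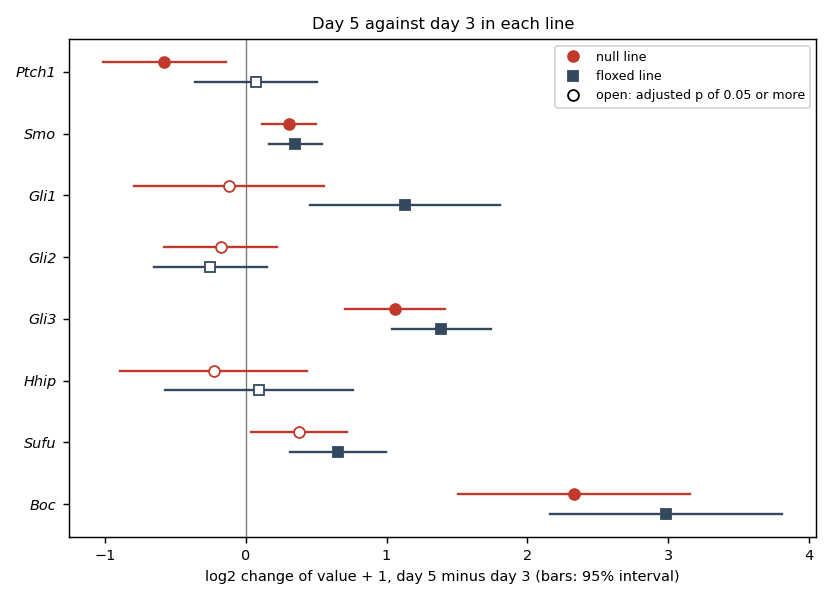
Log2 changes of 8 Hedgehog genes, day 5 minus day 3, in the null line (red circles) and in the floxed line (dark squares), with 95% intervals and open symbols for an adjusted p of 0.05 or more; Shh is left out because it had no reads in floxed libraries at day 3. Boc (2.33 in null, 2.99 in floxed) and Gli3 (1.06 in null, 1.39 in floxed) lie farthest to the right.

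Levels of different genes were compared per length, as recovered reads per unit of annotated exon length and library size (RPKM). In null embryoid bodies at day 5 Smo had the highest level (23.6 ± 0.99), followed by Gli3 (15.7 ± 3.23), Boc (9.62 ± 1.85), Ptch1 (5.85 ± 1.20), Sufu (4.01 ± 0.80), Gli2 (3.68 ± 1.07), Gli1 (0.220 ± 0.062), Hhip (0.113 ± 0.030) and Shh (0.0412 ± 0.029). In floxed embryoid bodies at day 5 the levels were 26.2 ± 2.12 for Smo, 21.1 ± 3.84 for Gli3, 18.2 ± 8.37 for Boc, 8.90 ± 1.39 for Ptch1, 5.35 ± 0.61 for Gli2, 5.29 ± 0.63 for Sufu, 1.21 ± 0.41 for Gli1, 0.413 ± 0.37 for Shh and 0.145 ± 0.033 for Hhip. Neighbouring ranges overlapped among Ptch1, Sufu and Gli2 in null, and in floxed among Smo, Gli3 and Boc, between Gli2 and Sufu, and among Gli1, Shh and Hhip.

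At day 3 Boc ranked below Sufu in both lines, whereas at day 5 it ranked above Ptch1. In null embryoid bodies the levels per length were 17.4 for Smo, 8.03 for Ptch1, 6.75 for Gli3, 3.71 for Gli2, 2.77 for Sufu, 1.73 for Boc, 0.218 for Gli1, 0.119 for Hhip and 0.00874 for Shh. In floxed embryoid bodies they were 19.5 for Smo, 8.06 for Ptch1, 7.61 for Gli3, 6.09 for Gli2, 3.21 for Sufu, 2.33 for Boc, 0.50 for Gli1, 0.132 for Hhip and 0 for Shh. Ptch1 and Gli3 overlapped in null, and in floxed Ptch1, Gli3 and Gli2 overlapped in turn, as did Sufu and Boc. Gli1, Hhip and Shh were the lowest members in all 4 groups, so their values rest on the fewest reads.

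The 34 other pathway genes, from ligands to kinases, were all in the table, and 33 were tested, Dhh being too low. At day 5, 7 of the 33 were lower in null and 2 were higher, with a median of -0.16, where 13.5% of all genes were lower and 13.0% higher. At day 3, 2 were lower and 4 were higher, with a median of -0.05, where 2.03% of all genes were lower and 4.09% higher. Scube3, of a family of secreted proteins of which Scube2 helps release Hedgehog ligand, had 222, 189 and 306 in null and 746, 607 and 1203 in floxed libraries at day 5. Its log2 change was -1.80 ± 0.31 (adjusted p = 0.00153), without overlap. Scube2 itself, named after its values were seen, averaged 136 ± 39.9 in null and 310 ± 16.2 in floxed at day 5. Its groups did not overlap either, but it was not called. Evc, part of a ciliary complex that passes on the Smo signal, was lower in null at day 5 (-0.87 ± 0.11, adjusted p = 0.000283) and at day 3 (-0.60 ± 0.11, adjusted p = 0.00828; 0.0654 without the libraries numbered 3). Gnas, which encodes a G protein subunit that raises cyclic AMP, was lower by 0.44 ± 0.08 at day 5 (adjusted p = 0.00183) and by 0.51 ± 0.08 at day 3 (adjusted p = 0.0032).

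Evc2, the partner of Evc, was lower at day 5 by 0.57 ± 0.10 (adjusted p = 0.00207). The remaining 3 lower genes at day 5, named after their values were seen, were Scube1 (-1.30 ± 0.27), the coreceptor Gas1 (-0.95 ± 0.27) and the ciliary receptor Gpr161 (-0.71 ± 0.16). Of these Gas1 failed the test when leaving out null day 5 replicate 1 (adjusted p = 0.0849) or 3 (0.0543), floxed day 5 replicate 2 (0.0568) or 3 (0.0884), or the libraries numbered 3 (0.0787). Ihh, another ligand, also named after its values were seen, had 52.0, 31.5 and 75.8 in null and 27.1, 70.4 and 139 in floxed libraries at day 5, which overlapped (-0.36 ± 0.55, adjusted p = 0.674; 0.19 without floxed day 5 replicate 3).

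The genes that were higher in null were Spop, an adaptor of Gli protein degradation (0.63 ± 0.09 at day 5, 0.56 ± 0.09 at day 3), Prkar1a, a regulatory subunit of protein kinase A (0.42 ± 0.07 at day 5, 0.50 ± 0.07 at day 3), and, called at day 3 with no interaction called, Arrb2 (0.57 ± 0.10) and Fbxw11 (0.34 ± 0.07). All 4 lie on chromosome 11, many of whose genes were higher in null libraries. With that chromosome left out 179 genes were called higher in null at day 3, against 696 with it. With its values centred, Spop at day 3 (0.20, adjusted p = 0.24), Prkar1a at day 3 (0.14, adjusted p = 0.287) and day 5 (0.09, adjusted p = 0.347), Arrb2 (0.21, adjusted p = 0.263) and Fbxw11 (-0.02) were not called, while Spop at day 5 was still called at a smaller change (0.30, adjusted p = 0.0258). Fbxw11 also failed the test with null day 3 replicate 3 (0.25), floxed day 3 replicate 1 (0.32) or 2 (0.32) or the libraries numbered 3 (0.29) left out and with only the day 3 libraries in the fit, these being log2 changes. None of the 9 Hedgehog members lies on that chromosome.

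Target and patterning genes of the pathway were given by 29 names, of which 24 were in the table and tested. The list mixes genes of the ventral neural tube with genes of its dorsal part, such as Pax3 and Pax7. No common direction can be assumed for it, so its counts and median do not measure the output of the pathway. At day 5, 8 were lower in null and none was higher (median -1.01), beside 13.5% lower and 13.0% higher among all genes, and at day 3, 1 was lower and none was higher (median -0.39), beside 2.03% lower and 4.09% higher. Ccnd1 and Ccnd2, which encode D-type cyclins, were lower at day 5 by 0.94 ± 0.13 (adjusted p = 0.000364) and 1.81 ± 0.30 (adjusted p = 0.00126). Bcl2, a survival gene, was lower by 1.19 ± 0.19 (adjusted p = 0.00114), Foxd1 by 1.98 ± 0.46 (adjusted p = 0.00817) and Nkx6-2, a homeobox gene of the neural tube, by 1.75 ± 0.48 (adjusted p = 0.0184). Foxd1 had 9 reads over the null day 5 group and 50 over floxed day 5. It passed the filter on low values only through the floxed groups, in which it was high, and the 8 lower genes include it. Foxa2, given above, was also among the 8. Nkx6-2 lost its call without null day 5 replicate 2 (-1.20) or floxed day 5 replicate 2 (-1.43).

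The other two lower genes, Mycn (-0.36 ± 0.11, adjusted p = 0.0342) and Pax7, a gene of the dorsal neural tube (-2.48 ± 0.79, adjusted p = 0.0352), were named after their values were seen. Mycn failed the test when leaving out null day 5 replicate 1 (adjusted p = 0.111) or 2 (0.107), floxed day 5 replicate 1 (0.0539) or 3 (0.125), or the libraries numbered 3 (0.0675), or under upper-quartile scaling (0.055), and Pax7 when leaving out null day 5 replicate 1 (0.102), 2 (0.0704) or 3 (0.0634) or floxed day 5 replicate 2 (0.0687) or 3 (0.127), or with a pseudocount of 0.5 (0.0792). Olig2 and Nkx2-2, ventral neural tube genes that respond to Shh in the embryo, likewise chosen afterwards, were not called at day 5. Olig2 averaged 96.1 ± 30.9 in null and 130 ± 14.1 in floxed (-0.47 ± 0.27, adjusted p = 0.212). Nkx2-2 averaged 3.55 ± 1.83 in null and 2.76 ± 0.88 in floxed, from 10 reads over each group, and passed the filter only through its day 3 values. Its change was 0.23 ± 0.53 (adjusted p = 0.785, and -0.07 without null day 5 replicate 1), and so few reads cannot show whether it changed. At day 3 the lower gene was Nkx6-1, a ventral neural tube gene, with 4.89, 1.34 and 2.68 in null and 8.71, 8.58 and 31.7 in floxed libraries (-1.97 ± 0.49, adjusted p = 0.0316). The call of Nkx6-1 rests on 8 reads over the null day 3 group and 52 over floxed day 3. That call was lost with null day 3 replicate 2 (-1.64) or 3 (-1.97) or floxed day 3 replicate 3 (-1.38) or all libraries numbered 3 (-1.38) left out, with a pseudocount of 5 (-1.28), with edgeR (-2.44), with only the day 3 libraries in the fit and with chromosome 11 left out or centred.

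**Figure D4:**
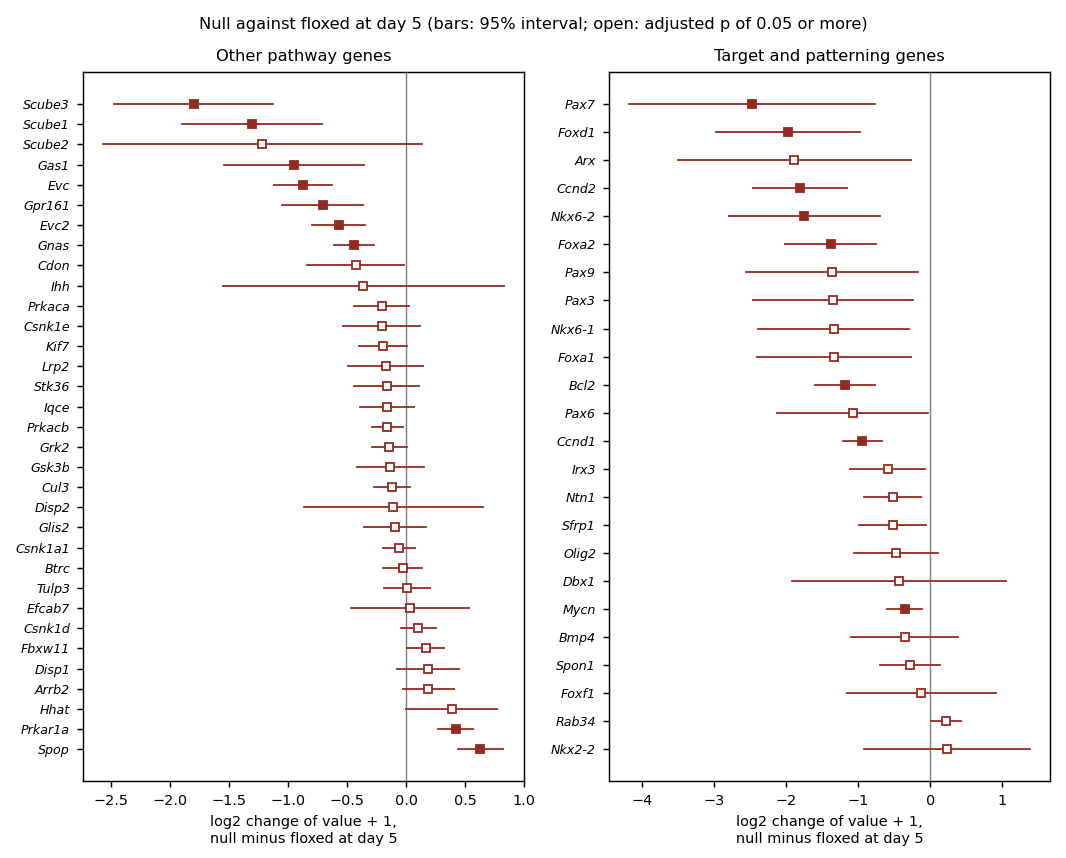
Log2 changes at day 5, null minus floxed, of the 33 tested other pathway genes (left) and the 24 tested target and patterning genes (right), with 95% intervals; filled squares are genes with an adjusted p under 0.05. In the left panel 7 filled squares lie below 0 and 2 above, and in the right panel all 8 filled squares lie below 0.

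Between the days, 16 of the 33 other pathway genes were higher at day 5 in the null line and 3 were lower, and in the floxed line 21 were higher and 3 were lower. Scube1 rose by 3.00 ± 0.27 in the null line and by 4.26 ± 0.27 in the floxed line. Of the target and patterning genes, 13 of 24 were higher at day 5 in the null line and 1 was lower, and in the floxed line 16 were higher and 2 were lower. Among all genes 22.6% were higher and 21.9% lower in the null line, and 22.5% higher and 19.2% lower in the floxed line. Ntn1, a guidance gene of the floor plate, rose by 2.70 ± 0.18 in the null line and by 2.67 ± 0.18 in the floxed line.

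The genes whose profile over the 12 libraries was most like that of Ptch1 were Slc6a8, Wasf3, Klhl22, Mgat3 and Relt. Their root mean square differences from Ptch1, on centred log2(value + 1), were 0.188 to 0.212, beside a median of 0.502 over all genes. Most like Gli1 were Scube3 at 0.464, Grrp1 at 0.505, Gm26793 at 0.508, Agpat3 at 0.520 and Mapk11 at 0.546, beside a median of 1.11. Scube3 is also among the pathway genes above, and all these values describe the same 12 libraries without a test.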

How the data were processed

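RNA was measured in 12 embryoid body samples with stranded total RNA libraries (8 PCR cycles, per the labels' protocols). The authors deposited a signal per gene and sample, made of read counts divided by 1 size factor per sample. The submitters' processing notes list mm10 and the tools DESeq 1.16.0, HTSeq 0.6.0, TopHat2 2.0.10 and CASAVA 1.8.2, without roles; the strand setting and the filter behind the table are not given in the sources used here. Whole reads were recovered from the values: 100% of values in every column came out whole (tolerance 0.01), and counts of libraries of a group differed beyond sampling noise (chi-squared over its degrees of freedom at least 11.4). Symbols, positions and exon lengths came from GENCODE M21 (mm10), which matched 18199 IDs without version and left 70 unmatched.

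Values were tested as log2(value + 1) with limma-trend (limma 3.58.1, R 4.3.3), fitting a mean per group to all 12 samples, with 8 residual and 5 prior degrees of freedom. A gene was tested, two-sided, if any group averaged at least 10, with Benjamini-Hochberg adjustment over all of them. Fold changes on this scale understate the change of low genes. Intervals and limits from counts cover counting error only. Alternatives were other pseudocounts, filters, scalings, samples and fits, and edgeR 4.0.16 and DESeq2 1.42.0 on the recovered reads, which called 4490 and 4924 genes at day 5 between genotypes, against 4509 by limma. Scripts were tested on simulated data.

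Members, gene lists, markers and alternatives were chosen with earlier results of these data known. Named were all members, Kat2a, at most 6 called genes per list and comparison with the smallest p, and the 5 genes nearest in profile to Ptch1 and to Gli1; others are marked where they appear. A gene of the pathway list is not reported here. The series text speaks of duplicates, while the labels give 3 samples per group.

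The labels number samples 1 to 3 in every group. Deviations from group means correlated between same-numbered null and floxed libraries at 0.247 to 0.424 at day 5 and 0.270 to 0.372 at day 3, against at most 0.0268 and -0.0175 for other pairs, so the numbers pair samples in genotype comparisons, and a fit with the number as a block was an alternative. Between days the same-numbered values were 0.123 to 0.282 in the null line and 0.0814 to 0.214 in the floxed line. Other pairs reached at most 0.0521 in the null line and 0.124 in the floxed line. In the floxed line the lowest same-numbered value was below that, so the numbers do not clearly pair samples between its days. Some members' promoter windows and protein sequences were not used here.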

Additional observations from a re-analysis of the deposited data

Results flagged for a closer look

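Ccnd2, which encodes cyclin D2 and stands in the list of Hedgehog target genes, had a genotype difference that itself differed between the days. It had 1440.0, 1392 and 1954 normalised counts in null and 4562, 5052 and 7346 in floxed libraries at day 5, and 485, 323 and 522 in null and 272, 172 and 463 in floxed libraries at day 3. The null libraries were all below the floxed ones at day 5, while the groups overlapped at day 3. The interaction was -2.449 on the log2 scale (SE 0.43, adjusted p = 0.0345 by limma with Benjamini-Hochberg adjustment over all genes). With 1 library left out it failed the test in 9 of the 12 fits, all except those without floxed day 3 replicate 3, floxed day 5 replicate 1 or floxed day 5 replicate 2, and it lay between -2.66 and -2.10 in those 9.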

How the results depend on the processing

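Of the 9 members, Gli1 at day 5 stayed lower in null, past the threshold, in every fit that left out 1 library and under every other alternative; so did Shh where it was tested, but its high floxed day 5 level is also what let it pass the filter. Each other genotype call of a member was lost on leaving out certain single libraries, as given with each gene. Between genotypes at day 3, the members called numbered 0 with chromosome 11 left out, 0 with it centred (an alternative added after the data were seen) and 0 without the 4 libraries numbered 3, and 0 to 2 with 1 library left out, beside 2. All genes called there, beside 1041, were 1866 with the replicate block, 388 with chromosome 11 left out, 458 with it centred, 647 with only the groups compared in the fit, 1703 with DESeq2, 382 without the libraries numbered 3, and 426 to 1133 with 1 library left out. At day 5 the members called, beside 6, were 3 without the libraries numbered 3 (all genes called were then 2592, beside 4509) and 2 to 8 with 1 library left out; with the replicate block they were 8, which added Smo and Boc, and at day 3 the pairing by block changed no member's call. Interaction calls, beside 81, were 443 with the replicate block, 511 with DESeq2, 35 without the libraries numbered 3 and 3 to 115 with 1 library left out. Of called genes between genotypes at day 3, 66.9% were higher in null, but 46.1% with chromosome 11 left out and 46.5% with it centred; of interaction calls 51.9% were positive, but 64.7% under upper-quartile scaling. No scaling moved the median of all genes by over 0.1.

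Some values changed sign, and all but Fbxw11, called higher in null at day 3 (0.34), were uncalled. Without the libraries numbered 3, the day 3 genotype change was 0.0473 for Ptch1, 0.206 for Hhip and 0.171 for Boc, and the null day change of Gli2 was 0.0078. Fbxw11 at day 3 was -0.0201, not called, with chromosome 11 centred. With 1 library left out, the day 3 genotype change ran between -0.25 and 0.15 for Ptch1, -0.36 and 0.13 for Hhip, and -0.52 and 0.26 for Boc; the floxed day change between -0.0708 and 0.20 for Ptch1 and -0.16 and 0.33 for Hhip; the null day change of Gli1 between -0.29 and 0.13; the interaction between -0.13 and 0.013 for Smo and -0.16 and 0.21 for Gli2; and the day 5 genotype change between -0.0746 and 0.42 for Nkx2-2 and -0.97 and 0.19 for Ihh. The cause of these shifts was not tested. Few reads limit Shh, Hhip, Nkx2-2, Foxd1, Nkx6-1 at day 3, and Gli1 in the null line.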
